A study of Mus musculus with 59 samples.

Results

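The genes described here encode the receptors through which serotonin, noradrenaline and adrenaline, dopamine, histamine and acetylcholine act. They are the rows of the deposited count table whose Ensembl ID maps to a symbol of the Htr1 to Htr7, Adra1, Adra2, Adrb, Drd, Hrh, Chrm or Chrn series. This rule gave 53 of the 21935 rows: 12 serotonin receptors that couple to G proteins, 2 subunits of the serotonin-gated channel, 6 alpha and 3 beta adrenoceptors, 5 dopamine, 4 histamine and 5 muscarinic receptors, and 16 nicotinic subunits. The rule reads symbols and no measured value. Chrnd had no count in any library.

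RNA was sequenced from laser-captured tissue of C57BL/6 mice that had been killed 4 h after an intraperitoneal injection of vehicle or of the peptide combination named IP118/PY115. The series asks how agonism at the PYY and GLP-1 receptors together acts in brain areas that govern feeding. Capture took 4 mm² of each region per animal from sections of 10 µm. Captured were 2 hypothalamic nuclei, the paraventricular (PVN, 10 vehicle and 10 treated libraries) and the arcuate (ARC, 9 and 10), and in the hindbrain the nucleus of the solitary tract (NTS, 10 and 10). The title speaks of obese-diabetic mice, while the sample labels give no age, sex or diet. They also do not tie libraries to animals, so p-values between regions treat libraries of shared animals as independent. Library numbers run from 5465 to 5484 in PVN, 5509 to 5528 in ARC and 5726 to 5745 in NTS, except 5553 to 5557. Those are vehicle libraries of PVN and ARC, with no treated library among them. The labels do not say what the numbers stand for, and region cannot be told apart from number block.

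Most of these genes encode receptors that signal through G proteins. Gs-coupled receptors raise cyclic AMP in the cell, Gi-coupled receptors lower it and often restrain transmitter release, and Gq-coupled receptors mobilise calcium. Nicotinic receptors and the serotonin 5-HT3 receptor are instead ion channels built of several subunits, and which subunits meet sets how the channel conducts. Several approved drugs that change appetite, nausea or body weight act on members of these families, among them agonists of the receptor that Htr2c encodes and blockers of the 5-HT3 channel.

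Library totals ran from 3964093 to 28510118 counts. The 53 genes together took 0.0507% to 0.0655% of the counts of a PVN library, 0.0518% to 0.0678% in ARC and 0.0612% to 0.0730% in NTS. Region markers followed the labels: summed CPM (counts scaled by TMM to a common library size) of 5 PVN markers was 8590 to 21372 in vehicle PVN libraries and at most 473 elsewhere in vehicle mice, and the NTS markers Hoxa5 and Hoxb5 were at 0 in all vehicle PVN and ARC libraries. In each region the vehicle and the treated library numbered 1 went against their labels in Cdkn1a. In ARC, Cdkn1a was at 14.96 CPM in vehicle library 1 and at 3.43 to 7.87 in the other 8. Treated ARC library 1 had 4.29, and the other 9 had 11.01 to 19.5. In NTS the activity gene Fosb was at 39.4 CPM in vehicle library 1 and at 0.140 to 2.69 in the other 9, against 0.856 in treated library 1 and 18.8 to 48.1 in the other 9. In PVN, Fosb was at 21.4 CPM in vehicle library 1 and at 1.45 to 16.6 in the other 9, against 3.37 in treated library 1 and 11.1 to 48.8 in the other 9. In ARC the Fosb level of vehicle library 1 (4.30 CPM) lay within that of the other 8 (0.787 to 6.72). That of treated ARC library 1 (2.11) lay below the other 9 (3.05 to 12.7). The libraries numbered 1 are kept under their labels here, and the treatment changes of the receptors named are also given without them.

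Compared per kilobase of exon, the 6 most abundant receptor genes in vehicle PVN were Hrh1 (mean 18.8 CPM per kb), Hrh3 (17.6), Chrnb2 (15.4), Htr2c (7.85), Adra2a (6.90) and Adra1b (6.83). In vehicle ARC the order was Hrh3 (39.2), Chrnb2 (15.2), Drd2 (8.81), Hrh1 (8.73), Htr7 (5.47) and Htr1a (4.86). In vehicle NTS it was Adra2a (14.8), Chrnb2 (12.9), Hrh3 (10.17), Chrna3 (8.75), Htr2c (7.83) and Drd2 (7.56). Chrnb2, the beta subunit of most nicotinic receptors of the brain, and Hrh3, the receptor by which histamine neurons limit their own release, were thus among the 3 highest in every region. Of Chrnb2 exons 16.3% overlap Adar on the opposite strand, and of Hrh3 exons 11.1% overlap an antisense RNA. The strand setting of the authors' counting is not given in the sources used here.

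**Figure D1:**
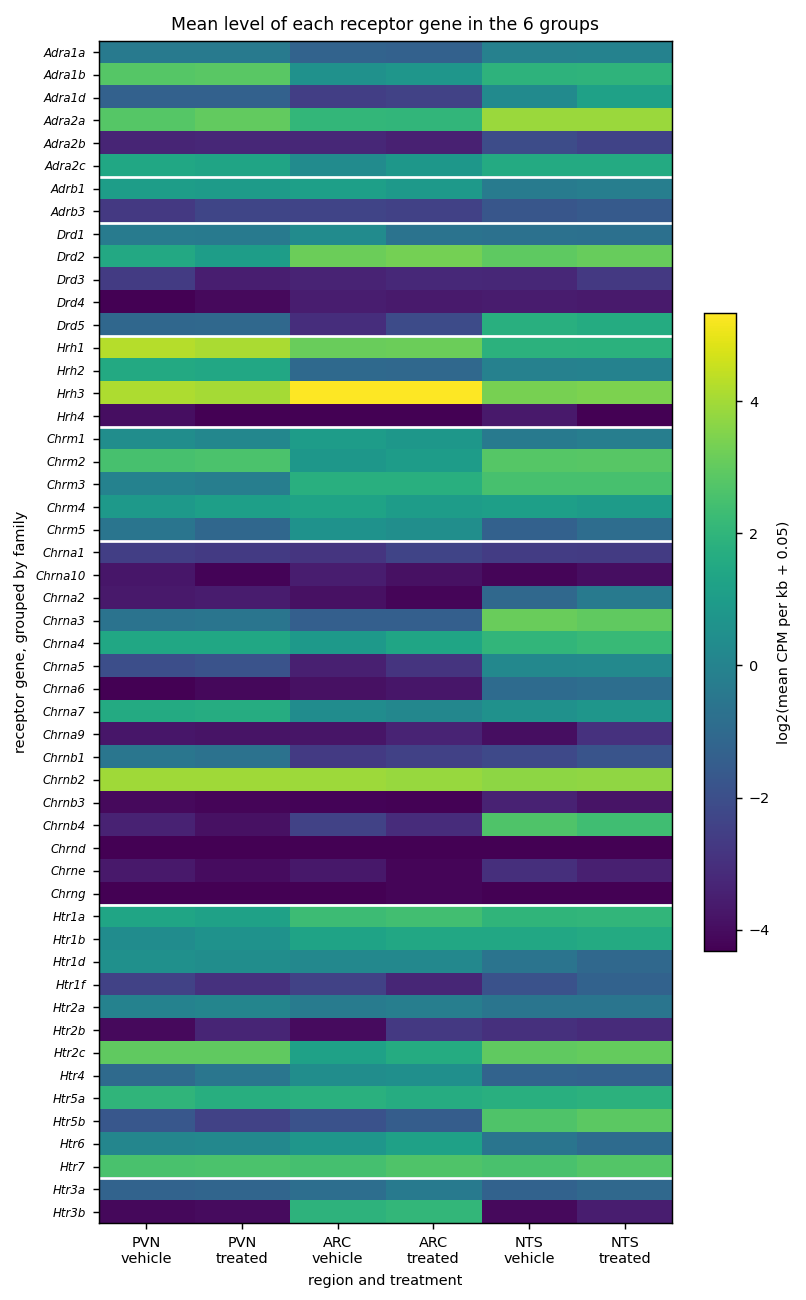
Mean level of 52 receptor genes (rows, grouped by family with white lines between families) in the 6 groups of libraries (columns), as colour on the log2 scale of mean CPM per kb plus 0.05. Vehicle and treated columns of a region look alike, while Htr3b is bright in ARC alone and Chrna3, Chrnb4 and Htr5b are bright in NTS.

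In vehicle mice 63.4% of the testable receptors differed between PVN and ARC, 65.9% between PVN and NTS and 70.7% between ARC and NTS. The shares of all genes were 46%, 56.1% and 61.7%. After a filter on low counts 41 members could be tested, in 1 edgeR fit of all 59 libraries with Benjamini-Hochberg adjustment over 14379 genes (FDR). Between PVN and ARC 26 of the 41 had an FDR under 0.05, against 46% of all genes tested, with 13 higher in PVN (24.8% of all genes) and 13 higher in ARC (21.1%). Between PVN and NTS 27 differed (56.1% of all genes), 12 higher in PVN (28.3%) and 15 higher in NTS (27.8%). Between ARC and NTS 29 differed (61.7% of all genes), 12 higher in ARC (30.2%) and 17 higher in NTS (31.5%). The groups did not overlap for 11, 11 and 17 members, against 11.6%, 13.2% and 22.8% of all genes. The 41 passed the filter partly through the region where they are high, so these counts describe them and not the family. Median log2 differences were 0.09, -0.03 and -0.21, against 0.01, 0.00 and -0.01 over all genes. A lower level in these bulk samples can mean fewer cells that make the RNA or less RNA per cell, which cannot be told apart.

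In NTS, 3 nicotinic subunit genes stood out that lie side by side on chromosome 9. Chrna3, Chrnb4 and Chrna5 encode the subunits of the receptor that carries fast transmission in autonomic ganglia and in some brainstem neurons. In GRCm38, Chrna5 runs from 54980880 to 55007779 on the plus strand, Chrna3 from 55010111 to 55026562 and Chrnb4 from 55028154 to 55048779 on the minus strand, with 2331 and 1591 bases between neighbours. Their promoter windows (RefSeq, 250 bases before to 50 after a start) are shown because the 3 genes share this regional pattern; capitals mark the GC box GGGCGG or the E-box CAGCTG on either strand, 2 motifs that do not overlap.
Chrna3, chr9:55026513-55026812, minus strand, GRCm38.p6: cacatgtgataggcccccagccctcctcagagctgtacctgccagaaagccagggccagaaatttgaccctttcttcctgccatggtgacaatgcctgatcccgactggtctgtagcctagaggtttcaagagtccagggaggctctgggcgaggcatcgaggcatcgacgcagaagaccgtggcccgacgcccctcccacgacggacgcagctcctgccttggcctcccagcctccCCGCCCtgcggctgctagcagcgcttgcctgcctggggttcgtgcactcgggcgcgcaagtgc
Chrnb4, chr9:55048495-55048794, minus strand, GRCm38.p6: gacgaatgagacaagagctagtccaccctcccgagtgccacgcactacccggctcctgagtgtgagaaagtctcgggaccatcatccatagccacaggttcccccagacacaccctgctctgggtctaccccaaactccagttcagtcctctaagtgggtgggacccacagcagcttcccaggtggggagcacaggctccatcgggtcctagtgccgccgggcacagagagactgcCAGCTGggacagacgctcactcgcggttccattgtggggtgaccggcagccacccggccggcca
Chrna5, chr9:54980630-54980929, plus strand, GRCm38.p6: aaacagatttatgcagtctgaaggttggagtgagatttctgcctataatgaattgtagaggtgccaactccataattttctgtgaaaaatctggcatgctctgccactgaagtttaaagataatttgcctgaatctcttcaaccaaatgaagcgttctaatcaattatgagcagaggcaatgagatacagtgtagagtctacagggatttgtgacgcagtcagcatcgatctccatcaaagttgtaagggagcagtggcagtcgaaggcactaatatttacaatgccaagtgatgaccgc
The Chrnb4 window lies 235 bases from the start that GENCODE gives the gene. The Chrna3 window held 1 GC box and the Chrnb4 window 1 E-box, and the Chrna5 window held neither. GC content was 64.3%, 63% and 41.3%. Of the 32851 RefSeq windows, 35.7% hold GGGCGG and 16.3% hold CAGCTG; among 40 members with a window, 22 and 8 do. A match describes these letters and marks no site, and neither motif is in all 3 windows.

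Chrna3 ran from 33.1 to 59.4 CPM (median 45.97) in 10 vehicle NTS libraries, from 1.24 to 5.09 (3.36) in 10 PVN libraries and from 0.429 to 2.70 (1.95) in 9 ARC libraries. Every NTS library stood above every library of the other regions. The log2 difference was -3.87 ± 0.20 (SE) for PVN over NTS (FDR 9.47e-26) and -4.66 ± 0.22 for ARC over NTS (FDR 8.92e-28). Chrnb4 ran from 15.4 to 34.95 CPM (median 22.4) in NTS, from 0 to 0.763 (0) in PVN and from 0 to 0.837 (0.619) in ARC. Here too the groups were apart, by -7.67 ± 0.35 for PVN over NTS (FDR 1.24e-28) and -5.35 ± 0.28 for ARC over NTS (FDR 5.67e-26). Chrna5 was the least abundant of the 3 per kilobase in NTS and ARC, and in PVN Chrnb4 was. It ran from 1.68 to 5.61 CPM (3.47) in NTS, from 0.124 to 1.34 (0.490) in PVN and from 0 to 0.538 (0.0884) in ARC, without overlap. Its log2 difference was -2.52 ± 0.37 for PVN over NTS and -4.58 ± 0.47 for ARC over NTS (FDR 3.39e-08 and 3.17e-13). Between the hypothalamic regions, Chrna3 and Chrna5 were higher in PVN (log2 0.78 ± 0.25 and 2.06 ± 0.55) and Chrnb4 was higher in ARC (-2.32 ± 0.56 for PVN over ARC), all at levels near 0 to 5 CPM.

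The NTS captures differed in the level of a marker list named for motor neurons. The summed level of 6 markers of vagal and hypoglossal motor neurons (Chat, Slc5a7, Slc18a3, Isl1, Mnx1 and Prph) ran from 40.5 to 220 CPM in vehicle NTS and from 43.2 to 351 in treated NTS, with Mnx1 at or near 0 throughout. Vehicle NTS library 8, with the highest sum of its group, also had the highest Chrna3 (59.4 CPM) and Chrnb4 (34.95). Vehicle NTS library 5, with the lowest sum, had 38.98 and 18.7. The lowest Chrna3 (33.1) was in vehicle NTS library 4, with a sum of 72.2 CPM. Vehicle NTS library 7, with a sum of 51.7, had 47.2 of Chrna3 and the lowest Chrnb4 (15.4). Vehicle NTS library 9, with a sum of 147, had 57.7 and 30.8. In treated NTS, library 1 had the highest sum (351) and the highest Chrna3 (58.6) and Chrnb4 (27.7) of its group. The same sum was 129 to 162 CPM (median 149.6) in vehicle ARC, above the vehicle NTS median of 99.1, and 14.6 to 25.7 in vehicle PVN. The median sum was thus higher in ARC than in NTS, but its members differed. Chat ran from 6.24 to 25.7 CPM in vehicle NTS and from 1.49 to 3.36 in vehicle ARC. Slc5a7 ran from 14.4 to 41.2 CPM in vehicle NTS and from 0.214 to 2.04 in vehicle ARC. Slc18a3 had means of 17.1 CPM in vehicle NTS and 18.6 in vehicle ARC. The part of these markers in the regional difference was not tested.

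Chrna6 and Chrna2, subunits of nicotinic receptors on catecholamine neurons and on selected interneurons, were NTS genes at low level. Chrna6 had no count in the 10 vehicle PVN libraries and 159 counts in vehicle NTS, which puts NTS at least 36.9-fold higher against a floor of 3 counts over the PVN group. In NTS it ran from 0 to 2.94 CPM (median 1.22), so its groups overlapped. Chrna2 ran from 0.168 to 4.47 CPM (1.31) in vehicle NTS and reached at most 0.254 in PVN and 0.262 in ARC. Its log2 difference was -3.67 ± 0.66 for PVN over NTS (FDR 3.10e-06). With the mean log2 CPM of the oligodendrocyte markers as a covariate this fell to -0.96 (FDR 0.426). Those 11 markers differed between regions, with median sums of 1051 CPM in vehicle PVN, 813 in ARC and 5491 in NTS, and their part in the Chrna2 difference was not tested further.

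Chrna4, the usual partner of Chrnb2, had a mean of 20.4 ± 7.03 CPM (SD, n = 10) in vehicle NTS, 13.4 ± 3.33 in PVN and 8.95 ± 4.74 (n = 9) in ARC. The 3 groups overlapped. PVN over NTS was -0.64 ± 0.28 (FDR 0.0450), a call that was lost when any 1 of 12 libraries was left out (FDR 0.0522 to 0.0902), and ARC over NTS was -1.19 ± 0.29 (FDR 3.49e-04). With the oligodendrocyte covariate both turned round, to 0.76 (FDR 9.22e-04) and 0.63 (FDR 0.0227). Chrnb2 itself was near even, with means of 129 ± 13.9 CPM (PVN), 127 ± 11.9 (ARC) and 108 ± 6.41 (NTS), and the lower NTS level passed the test against PVN (0.24 ± 0.05) and ARC (0.22 ± 0.05). Chrna7, whose product forms a channel on its own, was a PVN gene. It ran from 10.03 to 16.03 CPM (median 13.4) there, between 4.63 and 8.04 (5.11) in ARC and between 1.74 and 8.38 (7.03) in NTS, so PVN stood apart from both (1.26 ± 0.17 and 1.04 ± 0.16; FDR 7.52e-09 and 1.43e-07). Chrnb1, the beta subunit of the muscle receptor, was another PVN gene, with means of 1.63 ± 0.475 CPM in PVN, 0.268 ± 0.250 in ARC (n = 9) and 0.430 ± 0.277 in NTS. PVN exceeded ARC by 2.46 ± 0.42 (FDR 1.50e-06) and NTS by 1.95 ± 0.38 (FDR 1.29e-05). The other muscle-type subunits Chrna1, Chrnd, Chrne and Chrng and the hair cell subunits Chrna9 and Chrna10 had means of at most 0.654 CPM in every group.

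Htr3b was an ARC gene, whereas its partner was low everywhere. Htr3a and Htr3b encode subunits A and B of the serotonin-gated channel; subunit A can form the channel alone and subunit B joins it. They lie 23908 bases apart on chromosome 9, Htr3a from 48899213 to 48911099 and Htr3b from 48935008 to 48964990, both on the minus strand. The Htr3b window, shown because of this pattern, holds none of the GC box, the E-box, TATAAA, TGACGTCA or TAATTA on either strand, and its GC content was 44.3%.
Htr3b, chr9:48964941-48965240, minus strand, GRCm38.p6: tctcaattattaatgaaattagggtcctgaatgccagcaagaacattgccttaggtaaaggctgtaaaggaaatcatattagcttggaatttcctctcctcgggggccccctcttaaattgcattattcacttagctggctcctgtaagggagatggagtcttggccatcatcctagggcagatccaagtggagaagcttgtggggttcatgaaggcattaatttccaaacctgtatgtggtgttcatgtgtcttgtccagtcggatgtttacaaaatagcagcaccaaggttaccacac
TATAAA is in 13.6% of all windows, TGACGTCA in 1.79% and TAATTA in 5.29%.

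Htr3b ran from 4.93 to 13.4 CPM (median 8.88) in 9 vehicle ARC libraries, with 820 counts in all. PVN had 2 counts over 10 vehicle libraries and NTS 3, and no vehicle library of either exceeded 0.122 CPM. The ratio of ARC to PVN was 408 (95% counting interval 113 to 3374) and that of ARC to NTS 391 (133 to 1898). The fitted log2 differences, 8.06 and 8.01, depend on the prior count at such levels, and both passed the test (FDR 1.80e-23 and 3.79e-25). Htr3a, in contrast, had a mean of 1.07 ± 0.561 CPM in ARC (n = 9), 0.777 ± 0.715 in PVN and 0.750 ± 0.470 in NTS (n = 10 each), and no pair of regions passed. With the oligodendrocyte covariate ARC over NTS did, at 1.68 (FDR 0.0243), against 0.56 (FDR 0.256) without it. Per kilobase Htr3b (3.69) stood above Htr3a (0.514) in ARC and below it in PVN (0.00814 against 0.373) and NTS (0.00936 against 0.360). The order of the 2 subunits therefore differed between ARC and the other regions, a difference that was not tested.

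Hrh3 was also highest in ARC. It ran from 99.1 to 137 CPM (median 127) there, from 37.4 to 72.0 (53.9) in PVN and from 23.5 to 43.9 (32.01) in NTS. ARC lay wholly above both, by 1.16 ± 0.11 over PVN (FDR 3.64e-13) and 1.93 ± 0.12 over NTS (FDR 4.04e-22), and PVN was above NTS with overlap (0.77 ± 0.12, FDR 5.68e-08). Other members above both regions in ARC were lower in level. Htr4, a Gs-coupled serotonin receptor, ran from 3.94 to 8.65 CPM (6.21) in ARC against 0 to 4.33 (2.153) in PVN and 0.530 to 3.30 (1.87) in NTS, apart from NTS alone (1.84 ± 0.25, FDR 4.48e-09) though higher than PVN too (-1.51 ± 0.25 for PVN over ARC, FDR 1.04e-06). Chrm1, Chrm5, Drd1 and Htr6 were also of this kind. Of these Chrm5 had the largest difference to NTS (2.08 ± 0.47, FDR 1.21e-04), from means of 2.36 and 0.561 CPM.

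Drd2, through which dopamine inhibits its target cells and restrains its own release, separated both ARC and NTS from PVN. Its range was 14.999 to 33.2 CPM (median 22.8) in ARC, 15.8 to 24.5 (18.5) in NTS and 4.68 to 10.8 (7.17) in PVN. PVN lay below all libraries of the others (-1.71 ± 0.15 against ARC, FDR 2.13e-15; -1.50 ± 0.15 against NTS, FDR 9.88e-14), and ARC and NTS did not pass (0.20 ± 0.14, FDR 0.196). Chrm3, a Gq-coupled muscarinic receptor, was highest in NTS (20.8 to 50.9 CPM, median 33.8), then ARC (16.5 to 26.6, 22.1), then PVN (2.01 to 10.4, 5.29). PVN lay below both others without overlap (-1.93 ± 0.18 against ARC, FDR 2.16e-14; -2.73 ± 0.17 against NTS, FDR 3.09e-21), and ARC was below NTS with overlap (-0.80 ± 0.16, FDR 1.08e-05). The Gi-coupled serotonin receptors Htr1a and Htr1b were likewise lowest in PVN, with means of 11.3 and 5.95 CPM against 21.8 and 11.2 in ARC and 17.4 and 12.8 in NTS. Of Htr1b exons 18% overlap an antisense RNA.

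The histamine receptors Hrh1 and Hrh2, coupled to Gq and Gs, were PVN genes. Hrh1 ran from 60.3 to 101 CPM (median 90.6) in PVN, between 30.9 and 43.97 (39.7) in ARC and between 11.8 and 19.6 (16.02) in NTS, with no overlap between any 2 regions. The log2 difference was 1.10 ± 0.10 over ARC (FDR 4.82e-15) and 2.36 ± 0.10 over NTS (FDR 4.06e-30). Hrh2 ran from 5.59 to 26.9 CPM (17.2) in PVN, between 0.717 and 5.305 (2.49) in ARC and between 3.13 and 7.26 (5.63) in NTS. PVN exceeded ARC by 2.66 ± 0.24 (FDR 8.33e-15) and NTS by 1.70 ± 0.21 (FDR 5.43e-10), although 1 PVN library lay within the NTS range. All 3 tested histamine receptors differed in all 3 pairs of regions, as did 12 of the 41 tested members. The share of all genes called in all 3 pairs was not computed. Hrh4, the receptor of immune cells, was not testable, with 15 counts in all.

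**Figure D2:**
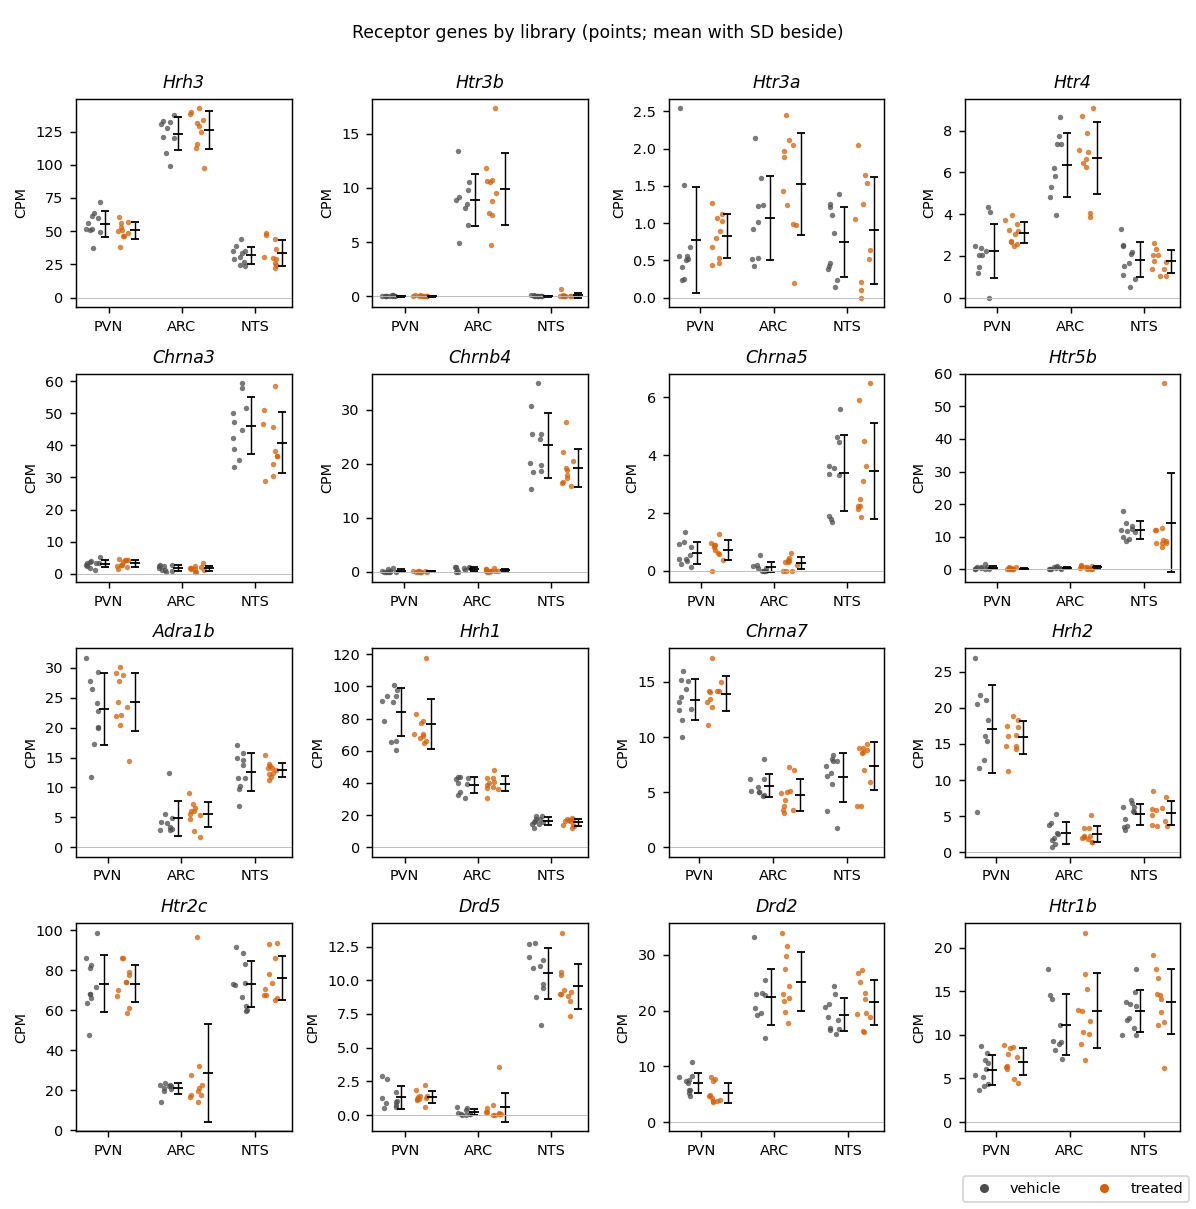
Level of 16 receptor genes in every library (vertical axis CPM, 1 panel per gene, own scale) by region, with vehicle libraries in grey and treated libraries in orange and the mean with SD beside each group. Htr3b is at 4.75 CPM or more in ARC and at 0.640 or less elsewhere, Chrna3, Chrnb4 and Htr5b are high in NTS, and Hrh1 falls from PVN to ARC to NTS in both treatments.

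All 5 tested alpha adrenoceptor genes were lower in ARC than in NTS, as were 31.5% of all genes, and 4 of 5 were lower in ARC than in PVN, as were 24.8% of all genes. Adra2a, the receptor by which noradrenaline inhibits its own neurons and many others, ran from 60.9 to 82.5 CPM (median 72.0) in NTS, from 21.1 to 40.03 (34.9) in PVN and from 15.8 to 23.4 (20.1) in ARC. NTS stood apart from both (-1.11 ± 0.09 for PVN over NTS, FDR 3.47e-17; -1.85 ± 0.10 for ARC over NTS, FDR 1.67e-26). Adra1b, a Gq-coupled receptor, ran from 11.7 to 31.7 CPM (23.4) in PVN, between 2.88 and 12.4 (4.07) in ARC and between 6.89 and 17.1 (12.7) in NTS. It was highest in PVN, by 2.23 ± 0.21 over ARC (FDR 4.62e-14) and 0.87 ± 0.18 over NTS (FDR 6.03e-05), with overlap in both pairs. The beta-1 gene Adrb1 was lowest in NTS. It ran from 5.56 to 10.96 CPM (6.88) in ARC, from 2.99 to 9.75 (6.64) in PVN and from 1.60 to 3.58 (2.44) in NTS, with a log2 difference of 1.40 ± 0.19 for PVN over NTS (FDR 4.12e-09) and no call between PVN and ARC (FDR 0.760). The beta-3 gene Adrb3 was instead lower in PVN than in NTS, from means of 0.345 and 0.849 CPM (-1.28 ± 0.54, FDR 0.0372), a call that was lost without the libraries numbered 1 (FDR 0.127).

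Htr2c, the Gq-coupled serotonin receptor that curbs feeding, was low in ARC. It ran from 47.3 to 98.7 CPM (median 69.8) in PVN, between 13.98 and 23.6 (22.1) in ARC and between 59.7 and 91.7 (72.8) in NTS. ARC lay below all libraries of both others (1.80 ± 0.21 for PVN over ARC, FDR 8.56e-11; -1.82 ± 0.20 for ARC over NTS, FDR 2.72e-11), and PVN and NTS did not pass (-0.02 ± 0.18, FDR 0.949). With the oligodendrocyte covariate PVN over NTS became 0.80 (FDR 1.37e-05) and ARC over NTS -0.70 (FDR 0.00176). Chrm2, a Gi-coupled muscarinic receptor, had the same order: 23.4 to 41.4 CPM (34.6) in PVN, 6.72 to 12.3 (10.1) in ARC and 31.2 to 57.7 (40.5) in NTS. Its difference was 1.74 ± 0.16 for PVN over ARC (FDR 1.79e-14) and -2.03 ± 0.16 for ARC over NTS (FDR 2.00e-17), both without overlap.

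Htr5b and Drd5 were NTS genes. Htr5b, a serotonin receptor whose human counterpart is not functional, ran from 8.67 to 17.8 CPM (median 11.9) in NTS, from 0 to 1.66 (0.400) in PVN and from 0 to 1.07 (0.358) in ARC. NTS was wholly above both (-4.81 ± 0.48 for PVN over NTS, FDR 5.22e-13; -4.72 ± 0.48 for ARC over NTS, FDR 6.91e-13). Drd5, a Gs-coupled dopamine receptor, ran from 6.71 to 12.8 CPM (10.99) in NTS, from 0.502 to 2.897 (1.004) in PVN and from 0 to 0.612 (0.107) in ARC. NTS was again apart (-2.997 ± 0.34 for PVN over NTS, FDR 2.03e-11; -5.55 ± 0.45 for ARC over NTS, FDR 7.09e-17). Of Drd5 exons 48.6% overlap the antisense gene Gm26560, and reads of the 2 genes cannot be told apart without strand. Htr1d, a Gi-coupled receptor, was instead lowest in NTS, at 0.588 to 2.48 CPM (2.16) against 2.26 to 7.66 (4.51) in PVN and 2.33 to 4.95 (3.43) in ARC. PVN exceeded NTS by 1.19 ± 0.21 (FDR 1.57e-06), with overlap.

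Not every receptor varied by region. Htr7, a Gs-coupled serotonin receptor among the 6 most abundant in ARC, had means of 19.9 ± 3.04 CPM in PVN, 18.6 ± 3.36 in ARC and 19.9 ± 5.76 in NTS, with FDR from 0.428 to 0.854 over the 3 pairs. Chrm4, Chrna1, Htr2a and Htr3a also passed in no pair, although Htr2a did between PVN and NTS when the vehicle libraries were fitted alone (0.52, FDR 0.0338). A p that misses the threshold does not show that levels are equal, and the Chrna1 standard errors of 0.51 to 0.53 leave wide intervals. Above both other regions stood 11 genes in NTS, 8 in ARC and 5 in PVN. No such share was computed over all genes, so these counts describe the members and are no trait of the family. Of 82 called differences in vehicle mice, 14 changed direction or side of the threshold under at least 1 alternative. The other 68 did so under none in which they were tested. A filter of 20 counts in 9 libraries left some called genes untested, Chrna6 among them, and these are not counted as changed.

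The same contrasts were computed in the treated libraries, which share no library with the vehicle groups. Of 41 members 25 passed between PVN and ARC (48.7% of all genes), 26 between PVN and NTS (58.8%) and 32 between ARC and NTS (63.8%). Of the vehicle calls, 25 of 26, 24 of 27 and 28 of 29 were called again in the same direction, and none was called in the opposite one. Drd1 in both ARC pairs and Adrb3, Chrm1 and Htr5a between PVN and NTS were called in vehicle but not in treated mice. Htr2a and Htr4 between PVN and NTS, and Adrb3, Chrna7, Htr1a and Htr5a between ARC and NTS, were called in treated but not in vehicle mice. These differences between vehicle and treated mice were tested as interactions, and none passed. Htr3b gave a ratio of 366 (125 to 1778) for ARC over PVN in treated mice. The region of the highest mean was the same for 35 of 41 members. Neither share was computed over all genes, so this repetition describes the members and is no trait of the family.

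**Figure D3:**
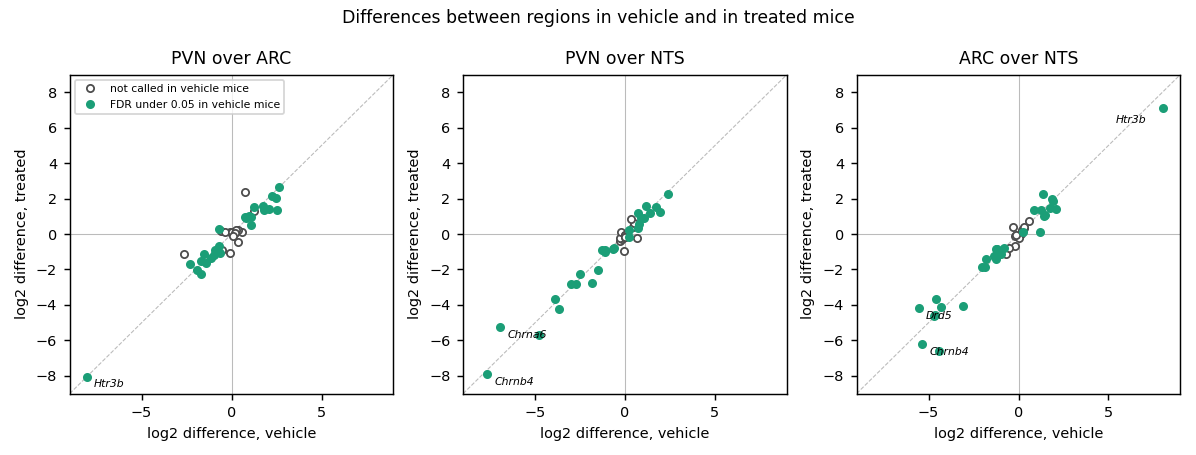
Log2 difference between regions of the 41 tested receptor genes in vehicle mice (horizontal) and in treated mice (vertical), 1 panel per pair of regions, with the dashed line of equality. Filled points passed an FDR of 0.05 in vehicle mice, and no gene called in both lies on opposite sides of 0.

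No receptor gene changed with IP118/PY115 at an FDR under 0.05 in any region. In edgeR, 0 of 30 tested members were called in PVN, 0 of 31 in ARC and 0 of 35 in NTS, against 0.656% of all genes in PVN and 0 in ARC and NTS. Vehicle and treated libraries overlapped for every tested member, and groups without overlap made up 0.0149% of all genes in PVN and 0 in ARC and NTS. DESeq2 also called 0 members in each region. At an unadjusted p under 0.05 there were 3, 3 and 2 members, against 9.34%, 7.20% and 5.80% of all genes tested. Median log2 changes were -0.02, 0.02 and 0.04, against -0.02, 0.00 and 0.00 over all genes. The 95% interval lay within 1 log2 unit of 0 for 29 of 30, 27 of 31 and 29 of 35 members, and within 0.5 for 18, 12 and 20. For the others the interval reached past these limits.

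In PVN the smallest p was that of Htr5a, a Gi-coupled serotonin receptor, at 14.4 to 27.9 CPM (median 20.8) in vehicle and 13.4 to 21.6 (17.1) in treated mice. Of 10 treated libraries 8 were below the vehicle median, and the log2 change was -0.28 ± 0.10 (FDR 0.276). Drd2 ran from 4.68 to 10.8 CPM (7.17) and from 3.60 to 8.05 (4.44), a change of -0.40 ± 0.18 (FDR 0.468). Adra2a ran from 21.1 to 40.03 CPM (34.9) and from 30.9 to 46.4 (39.1), a change of 0.20 ± 0.09 (FDR 0.476). Htr4 ran from 0 to 4.33 CPM (2.153) and from 2.47 to 3.94 (3.11), with all 10 treated libraries above the vehicle median and a change of 0.47 ± 0.28 (FDR 0.675). In each of these 4 the groups overlapped. Without the libraries numbered 1 the changes were -0.34 for Htr5a, -0.50 for Drd2, 0.24 for Adra2a and 0.45 for Htr4 (FDR 0.0862, 0.188, 0.247 and 0.619).

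In ARC, Drd1, a Gs-coupled dopamine receptor, ran from 1.29 to 7.38 CPM (median 4.97) in vehicle and from 0.390 to 3.87 (2.00) in treated mice. All 10 treated libraries were below the vehicle median, the groups overlapped, and the change was -1.04 ± 0.31 (95% interval -1.68 to -0.40, FDR 0.265). Without the libraries numbered 1 it was -1.22 ± 0.33 (FDR 0.0698), and DESeq2 gave an FDR of 0.0966. Over the 28 alternatives run, single libraries left out included, the FDR lay between 0.0698 and 0.522. Htr6 ran from 2.79 to 5.90 CPM (3.61) and from 2.39 to 7.31 (5.80), a change of 0.46 ± 0.19 (FDR 0.560). Htr5a ran from 15.3 to 22.2 CPM (18.9) and from 14.6 to 17.99 (17.04), with all 10 treated libraries below the vehicle median (-0.18 ± 0.08, FDR 0.649). Adra2c, a Gi-coupled receptor, ran from 1.93 to 6.79 CPM (3.80) and from 3.28 to 11.4 (5.56), a change of 0.45 ± 0.23 (FDR 0.708) that was 0.29 (FDR 0.849) without treated library 2. The groups overlapped for all 4 genes. Without the libraries numbered 1 the change was 0.57 for Htr6, -0.22 for Htr5a and 0.57 for Adra2c (FDR 0.154, 0.340 and 0.434).

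In NTS, Adra1d, a Gq-coupled receptor, ran from 0.474 to 3.97 CPM (median 2.16) in vehicle and from 1.69 to 12.4 (3.28) in treated mice, a change of 0.91 ± 0.35 (FDR 0.576). Without the treated library at 12.4 CPM, number 9, the change was 0.55 (FDR 0.999). Chrnb4 ran from 15.4 to 34.95 CPM (22.4) and from 15.9 to 27.7 (18.3), with 9 of 10 treated libraries below the vehicle median (-0.28 ± 0.13, FDR 0.795). The motor neuron markers had median sums of 99.1 CPM in vehicle and 80.6 in treated NTS, and their part in this value was not tested. Htr1d ran from 0.588 to 2.48 CPM (2.16) and from 0.856 to 2.26 (1.34), a change of -0.50 ± 0.25 (FDR 0.867). Htr6 ran from 0.240 to 2.53 CPM (1.45) and from 0.533 to 1.81 (1.09), a change of -0.44 ± 0.30 (FDR 0.999). All 4 pairs of groups overlapped. Without the libraries numbered 1 the changes were 0.95 for Adra1d, -0.38 for Chrnb4, -0.43 for Htr1d and -0.51 for Htr6 (FDR 0.448, 0.195, 0.861 and 0.873).

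**Figure D4:**
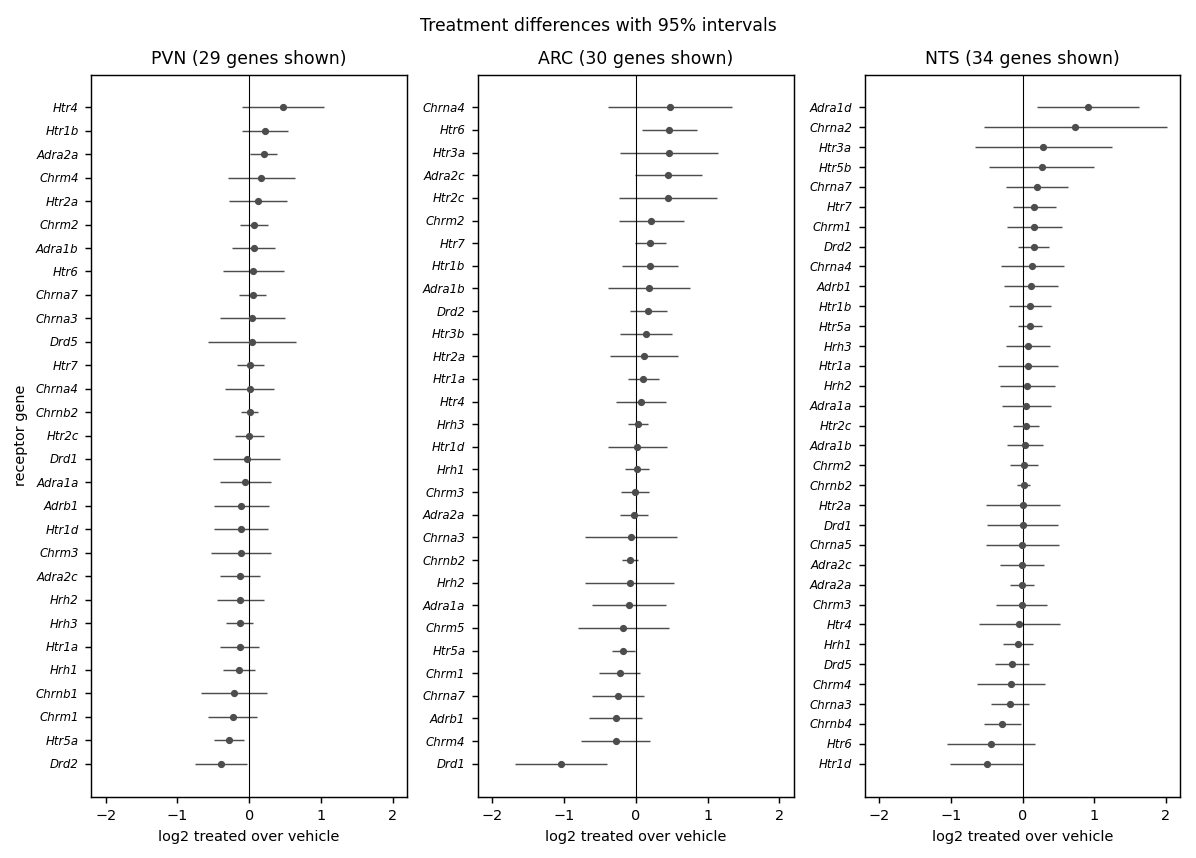
Log2 change with IP118/PY115 over vehicle (horizontal) of 29, 30 and 34 receptor genes (rows, ordered by change) in PVN, ARC and NTS, with points for the estimate and bars for the 95% interval. Estimates lie on both sides of 0 in each region, and Drd1 in ARC (-1.04) and Adra1d in NTS (0.91) are the farthest from 0.

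Leaving out the libraries numbered 1 raised the number of called genes in PVN from 88 to 429, in ARC to 153 and in NTS to 162, but still called 0 receptor genes in each region. The nearest were Chrm1 in PVN (-0.43, FDR 0.0505), Drd1 in ARC, Htr5a in PVN (-0.34, FDR 0.0862), Hrh1 in PVN (-0.26, FDR 0.109), Htr6 in ARC, Drd2 in PVN and Chrnb4 in NTS. Chrm1, a Gq-coupled muscarinic receptor, and Hrh1 are named here after their values were seen.

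The test of whether the treatment change differed between regions called 0 of 41 members for each pair, against 0.0487% of all genes for PVN minus ARC, 0.0904% for PVN minus NTS and 0 for ARC minus NTS, in edgeR. At an unadjusted p under 0.05 there were 3, 2 and 4 members, against 6.21%, 4.28% and 3.76% of all genes, and DESeq2 called 0 members as well, as did the fit without the libraries numbered 1. The smallest p values belonged to dopamine and serotonin receptors. For PVN minus ARC they were Drd2 (-0.55 ± 0.21, FDR 0.643) and Drd1 (1.01 ± 0.39, FDR 0.650). For PVN minus NTS they were Htr5a (-0.39 ± 0.12, FDR 0.491) and Drd2 (-0.53 ± 0.21, FDR 0.856). For ARC minus NTS they were Htr6 (0.90 ± 0.33) and Drd1 (-1.05 ± 0.39), both with an FDR of 0.9999. These contrasts share libraries with each other.

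Genes that make, move and break down the ligands, or assemble and regulate the receptors, were followed as 4 lists of 49 genes. With treatment, 0 of 37, 42 and 44 tested genes were called in PVN, ARC and NTS, and 4, 2 and 2 had an unadjusted p under 0.05, against 9.34%, 7.20% and 5.80% of all genes. Lypd1, a membrane-anchored modulator of nicotinic receptors, had means of 88.4 CPM in vehicle and 104 in treated PVN (0.23 ± 0.06, FDR 0.119). Hdc, which makes histamine, had means of 2.38 and 1.29 CPM there (-0.86 ± 0.30, FDR 0.258) and 0.964 and 2.45 CPM in ARC (1.33 ± 0.62, FDR 0.675). Ppp1r1b, the dopamine-regulated phosphatase inhibitor DARPP-32, had means of 4.53 and 7.03 CPM in ARC (0.61 ± 0.22, FDR 0.479). In NTS the amine transporter gene Slc22a3 had means of 2.60 and 1.49 CPM (-0.82 ± 0.24, FDR 0.255), and Lypd1 69.1 and 78.6 CPM (0.18 ± 0.07, FDR 0.634).

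Between regions in vehicle mice, of the 46 tested genes of these lists 12 were higher and 19 lower in PVN than in ARC, 8 higher and 26 lower in PVN than in NTS, and 13 higher and 24 lower in ARC than in NTS. Of all genes 46%, 56.1% and 61.7% were called in these pairs. Dbh, the enzyme that turns dopamine into noradrenaline, had a mean of 182 CPM in NTS, 1.57 in ARC and 0.311 in PVN. Slc6a2, the noradrenaline transporter, had 8.37 CPM in NTS, 0.0763 in ARC and 0.0405 in PVN. Slc6a3, the dopamine transporter, had 34.9 CPM in ARC and 2.18 in PVN. Slc18a3, which loads acetylcholine into vesicles, had 18.6 CPM in ARC and 17.1 in NTS against 0.0541 in PVN, and Chat, which makes it, 2.4 CPM in ARC and 0.166 in PVN. In the vehicle NTS libraries Chat was higher, at 6.24 to 25.7 CPM. Colq, which anchors acetylcholinesterase, had 5.60 CPM in NTS and 0.0652 in ARC.

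Grouped by the G protein they use, the receptors gave different totals by region. Gi-coupled genes (15) summed to 46.8 ± 3.96 CPM per kb in vehicle PVN, 69.4 ± 5.04 in ARC and 55.6 ± 3.89 in NTS. Gq-coupled genes (10) summed to 38.3 ± 4.36, 20.4 ± 2.56 and 24.8 ± 2.71. Gs-coupled genes (9) summed to 14.2 ± 1.79, 14.8 ± 2.09 and 13.3 ± 2.24. ARC was highest in the Gi sum and lowest in the Gq sum, PVN was highest in the Gq sum, and the Gs sums lay within their SDs of each other. Hrh3 made up 39.2 of the 69.4 in ARC and Hrh1 18.8 of the 38.3 in PVN, and the region with the highest sum rested on them. In sums formed after these values were seen, the Gi total without Hrh3 was 29.2 ± 1.98 (PVN), 30.3 ± 3.23 (ARC) and 45.4 ± 2.80 (NTS). The Gq total without Hrh1 was 19.5 ± 2.14, 11.7 ± 1.72 and 21.2 ± 2.75. NTS thus had the highest mean in both, and ARC stayed lowest in the Gq total. Treated groups gave 45.2, 72.0 and 57.4 for Gi, 36.6, 21.3 and 26.4 for Gq and 14.2, 14.9 and 13.7 for Gs. No test was run on these sums, and Htr5b was placed in no class.

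**Figure D5:**
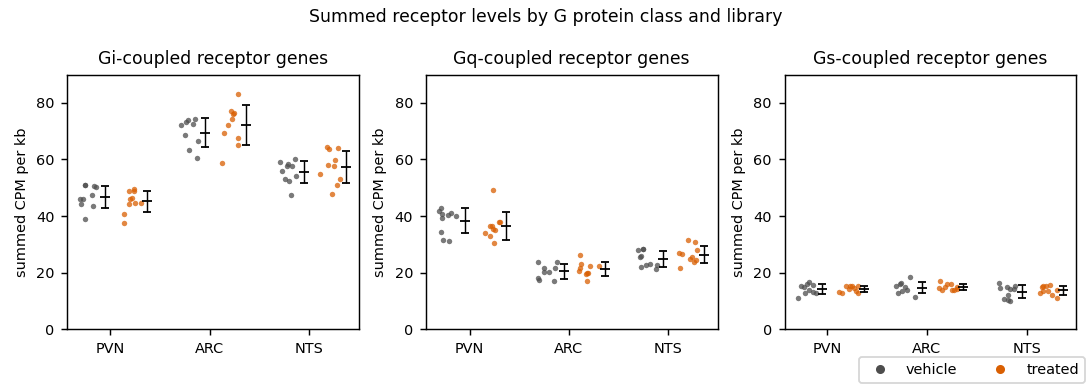
Summed CPM per kb of the Gi-coupled (15), Gq-coupled (10) and Gs-coupled (9) receptor genes in every library, by region, with vehicle in grey, treated in orange and the mean with SD beside each group; the vertical axis starts at 0. The Gi sum is highest in ARC, the Gq sum is highest in PVN, and the Gs sums are near level.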

How the data were processed

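RNA of laser-captured PVN, ARC and NTS from vehicle and IP118/PY115-treated mice was sequenced after a stranded mRNA library kit, per the labels' protocols. The submitters' processing notes name bcl2fastq 2.20.0.422, STAR 2.5.2a and GRCm38; the read counter, its strand setting and its annotation are not given in the sources used here. The authors deposited raw counts per Ensembl ID for 59 libraries and 21935 genes; every row names a gene. GENCODE (GRCm38) gave symbols for 21858 IDs and the exon lengths used per kb.

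Counts were tested as deposited with edgeR 4.0.16 (R 4.3.3; filterByExpr with minimum count 10 and total 15, TMM, robust quasi-likelihood, two-sided), with Benjamini-Hochberg adjustment (FDR) over all genes that passed the filter. Treatment was fitted within each region, and regions and interactions in 1 fit of all libraries. The fits were tested on simulated data. CPM are on the TMM scale of all libraries. Alternatives were DESeq2 1.42.0, RLE size factors, library totals, other filters, covariates, and libraries left out. No 2 libraries were identical. Labels do not say which libraries come from separate animals, so p-values measure the spread between these libraries.

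The values of 1 member and 1 marker gene are not reported here, although counts and sums over lists include them. Members and lists were chosen with earlier results of these data known. Named with full values were the 4 members of smallest p per treatment contrast, the 5 largest called differences per direction and pair of regions in vehicle mice with a mean of at least 2 CPM, and the 2 of smallest p per interaction. Of the pathway lists, the 2 of smallest p per treatment contrast and the 3 largest differences per pair of regions were named. Promoter windows are from RefSeq (GRCm38.p6) and matched 40 of 53 members. Counting intervals (95%) and the floor of 3 counts cover counting error only.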

Additional observations from a re-analysis of the deposited data

Results flagged for a closer look

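In 186 groups of receptor values, 21 held 1 library whose gap to its neighbour was large against the range of its group (Dixon's 95% limit). For independent, normally distributed values about 1 in 20 groups, or 9.3, would be flagged by chance. The groups share libraries and the shape of the CPM values was not checked, so 21 cannot be judged against 9.3.

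Treated ARC library 2 gave 5 of these. It had 96.3 CPM of Htr2c (14.3 to 32 in the other 9), 43.2 of Chrna4 (3.90 to 19), 28.2 of Chrm2 (7.21 to 16.6), 11.4 of Adra2c (3.28 to 7.02) and 5.17 of Hrh2 (1.42 to 3.39). The same library had a summed level of oligodendrocyte markers of 6020 CPM (503 to 2203 in the others), of neuron markers of 2924 (1633 to 2098) and of ARC markers of 1466 (2150 to 2905). Their part in the receptor values was not tested. Without it the treatment change of Htr2c in ARC went from 0.45 to 0.01 that of Chrna4 from 0.48 to 0.03, that of Chrm2 from 0.21 to -0.02, that of Adra2c from 0.45 to 0.29 and that of Hrh2 from -0.08 to -0.25, none of them called.

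Treated NTS library 9 gave 3, with 57.1 CPM of Htr5b (6.86 to 12.8 in the others), 12.4 of Adra1d (1.69 to 6.16) and 7.96 of Htr2a (1.65 to 4.36). Its summed PVN markers were 101 CPM, against 2.06 to 4.94 in the others. Without it the change of Htr5b in NTS went from 0.27 to -0.34 (FDR 0.720).

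Vehicle ARC library 8 gave 3, with 21.5 CPM of Chrna4, 12.4 of Adra1b and 10.96 of Adrb1. Its summed oligodendrocyte markers were 1359 CPM (492 to 1048 in the others) and its neuron markers 2049 (1715 to 1894). Treated PVN library 1, which goes against its label, had 118 CPM of Hrh1 and 10.4 of Chrm1, and treated NTS library 1, likewise, had 27.7 of Chrnb4. In treated PVN library 1 the oligodendrocyte sum was 1353 CPM (825 to 1120 in the others) and the neuron sum 2528 (2220 to 2446). Treated NTS library 1 had a motor neuron marker sum of 351 CPM, against 43.2 to 228 in the others. The part of these sums in the receptor values was not tested. Single high values were 5.90 CPM of Htr6 in vehicle ARC library 6, 14 of Chrm1 in vehicle PVN library 3, 11.7 of Adrb1 in treated PVN library 9, 8.04 of Chrna7 in vehicle ARC library 4, 13.5 of Drd5 in treated NTS library 8 and 27.4 of Htr5a in treated NTS library 7. The 1 low value was Htr2c in vehicle ARC library 3, at 13.98 CPM against 19.4 to 23.6.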

How the results depend on the processing

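No count of called receptor genes moved by more than 1.5 times in the settings run: vehicle counts ranged over 25 to 28 (PVN over ARC), 23 to 28 (PVN over NTS) and 27 to 33 (ARC over NTS), and treatment and interaction counts stayed at 0. The direction turned for Chrna4 with the oligodendrocyte covariate, from -0.64 to 0.76 (PVN over NTS) and from -1.19 to 0.63 (ARC over NTS); the cause was not tested. That covariate also ended the calls of Adra1d and Chrna2 in both NTS pairs, Drd1 in both ARC pairs, Hrh2 between ARC and NTS, and Htr1a, Htr5a and Htr6 between PVN and NTS. It added calls of Htr2c between PVN and NTS and of Adrb3, Htr1a and Htr3a between ARC and NTS. Fitting vehicle libraries alone added Chrna4 (PVN over ARC), Chrm2 and Htr2a (PVN over NTS) and Htr1a (ARC over NTS), and library totals added Chrm2 (PVN over NTS). Leaving out single libraries ended 28 of 1809 gene calls or comparisons, all of Adrb3, Chrna4 and Htr5a (PVN over NTS) and of Drd1 and Htr6 (PVN over ARC), with FDR up to 0.102. Over all genes, treatment calls (88, 0 and 0 in PVN, ARC and NTS) were 209, 59 and 66 by DESeq2, 429, 153 and 162 without the libraries numbered 1, 6, 0 and 0 with library total as a covariate, and 8, 26 and 3 with the oligodendrocyte covariate; PVN gave 12 without libraries 5553 to 5557 and 8 to 276 with 1 library left out, ARC 0 to 85 and NTS 0 to 92. Interaction calls over all genes (7, 13 and 0) were 15, 20 and 10 by DESeq2 and 52, 62 and 35 without the libraries numbered 1. Scaling by library totals moved the share of all called genes that were higher in PVN than in ARC from 54% to 41.6% in vehicle and from 50.6% to 38.6% in treated mice, and left the receptor split of vehicle mice at 13 and 13. No paired analysis was possible because the labels give each library its own number and no number is shared between groups. Depth limits the 12 receptor genes too low to test.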
